A study of Mus musculus with 12 samples.

Results

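Immunoglobulin heavy chain V genes (Ighv) encode most of the variable domain of the antibody heavy chain, and here they are the rows of the expected-count table whose symbol starts with Ighv and that held at least 1 count in at least 1 library. Of 185 Ighv rows in the annotation (GENCODE M21, GRCm38), 97 met this rule, out of 27967 genes with at least 1 count in the whole table. The libraries came from the mucosa of ileum or colon of C57BL/6J mice, all male and 8 weeks old, with 3 control and 3 Slc39a8-IEC KO libraries per tissue and 12 in all. The KO mice carried 2 floxed Slc39a8 alleles and a Villin-Cre transgene, whose promoter is active in intestinal epithelial cells. The labels give the controls as Slc39a8-fl/fl, while by the methods of the study some were floxed, some wild-type and some Villin-Cre. The labels do not say whether an ileal and a colonic library with the same number come from the same mouse.

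A heavy chain gene is assembled in developing B cells, which join 1 V segment to a D and a J segment ahead of the constant genes. V segments are flanked by recombination signals, and the RAG proteins cut there. All daughter cells of a B cell keep the V segment that it joined, so the V segments in the RNA of a tissue reflect which B lineage clones are present and how much heavy chain RNA each makes. In the gut most antibody is IgA from plasma cells of the lamina propria, which make heavy chain RNA at a very high level. In these libraries of whole mucosa, more cells of a clone and more RNA per cell cannot be told apart. A germline V segment is matched here by reads of rearranged and possibly mutated transcripts, and the mapping to the germline sequence was done by the study.

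The Ighv locus lies on chromosome 12 (GRCm38), where the 185 annotated rows span 113572927 to 116010093, and 183 of them are on the minus strand. The J segments end at 113429833, so segments with larger coordinates lie farther from them. The sequences of the 5 segments that led in at least 1 library are shown, because the results turn on how these segments differ and on whether reads can tell them apart. Each is the V exon after the leader codons, read 5′ to 3′ on the coding strand from the GENCODE M21 transcript. Capitals mark the bases that differ from Ighv1-55 at the same position, and Ighv2-9 has another length and was not compared base by base.
Ighv1-55 (chr12:115208095-115208388, minus strand): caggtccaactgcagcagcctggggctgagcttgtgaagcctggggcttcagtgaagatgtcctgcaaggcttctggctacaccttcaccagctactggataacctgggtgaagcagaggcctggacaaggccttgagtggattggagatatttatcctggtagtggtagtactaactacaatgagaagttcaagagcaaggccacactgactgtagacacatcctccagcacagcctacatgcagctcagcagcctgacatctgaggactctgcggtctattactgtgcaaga
Ighv1-72 (chr12:115757984-115758277, minus strand): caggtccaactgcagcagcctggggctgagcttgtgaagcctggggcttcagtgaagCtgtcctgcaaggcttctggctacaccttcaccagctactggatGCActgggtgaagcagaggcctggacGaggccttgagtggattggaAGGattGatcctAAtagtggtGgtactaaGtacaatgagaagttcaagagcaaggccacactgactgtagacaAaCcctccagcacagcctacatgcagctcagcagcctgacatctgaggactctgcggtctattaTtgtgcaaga
Ighv1-81 (chr12:115920279-115920572, minus strand): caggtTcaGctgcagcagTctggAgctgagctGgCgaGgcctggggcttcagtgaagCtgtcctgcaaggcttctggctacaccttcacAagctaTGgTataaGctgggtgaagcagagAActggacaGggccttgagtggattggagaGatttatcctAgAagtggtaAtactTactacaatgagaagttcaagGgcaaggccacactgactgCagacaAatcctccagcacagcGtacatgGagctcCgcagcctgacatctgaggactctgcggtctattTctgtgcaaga
Ighv1-26 (chr12:114788372-114788665, minus strand): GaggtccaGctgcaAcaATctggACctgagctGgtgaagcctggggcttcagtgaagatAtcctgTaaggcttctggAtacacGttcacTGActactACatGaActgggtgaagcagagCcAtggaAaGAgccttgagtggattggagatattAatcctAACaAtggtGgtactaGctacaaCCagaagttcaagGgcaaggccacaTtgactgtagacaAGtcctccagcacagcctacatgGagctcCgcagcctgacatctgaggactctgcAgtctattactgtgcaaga
Ighv2-9 (chr12:113879096-113879388, minus strand): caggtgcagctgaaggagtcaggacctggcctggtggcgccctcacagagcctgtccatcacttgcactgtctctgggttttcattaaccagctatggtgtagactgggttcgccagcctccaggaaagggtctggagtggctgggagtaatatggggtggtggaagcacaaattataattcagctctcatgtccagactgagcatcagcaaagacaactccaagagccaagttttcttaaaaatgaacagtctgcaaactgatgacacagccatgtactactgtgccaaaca

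Over 294 bases, Ighv1-72 differed from Ighv1-55 at 16 positions, which is 94.6% identity. Ighv1-81 differed at 28 positions (90.5%) and Ighv1-26 at 40 (86.4%). Nearest segments were sought only among the 24 Ighv1 segments with a count and a V exon of the same length. Within this set, the segment nearest to Ighv1-72 was Ighv1-62-3, with 2 differences (99.3% identity). The segment nearest to Ighv1-55 within it was Ighv1-64, with 15 differences. Segments of other lengths were not compared in this way and could be nearer. Windows of 75 bases in the spliced transcript were compared with the transcripts of all annotated genes. The share that occurs in no other gene was 28.3% for Ighv1-72, 79.8% for Ighv1-55, 83.8% for Ighv1-26, 97.2% for Ighv2-9 and 100% for Ighv1-81. Reads of Ighv1-72 could therefore be split with or lost to its neighbours in sequence, and its counts are uncertain. Ighv1-55 shared windows with Ighv1-50, Ighv1-56, Ighv1-59, Ighv1-62 and Ighv1-72, but not with Ighv1-64, so its reads could be split too. The reads of the study were 150 bases long and paired, so the share of ambiguous reads may be smaller than that of shared windows. Ighv1-62-3 itself held 3 counts in ileum KO 3 and none in the other libraries. Of the 97 segments, 36 had only unique windows and they held 32.9% of all Ighv counts.

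The libraries held between 16749138 and 27903083 expected counts, of which 88 to 4643 fell on Ighv segments. Slc39a8, the targeted gene, ranged from 20.1 to 20.8 CPM (counts per 1000000, scaled with TMM factors) in control colon and from 7.35 to 11.5 in KO colon, and from 5.22 to 8.39 in control ileum and from 2.62 to 4.35 in KO ileum. Ileum control 3 and ileum KO 1 stood apart from the other ileal libraries. Acta2, a smooth muscle actin, was at 7.14 CPM in the former, 4.89 CPM in the latter and 398 to 537 CPM in the other 4. All 5 smooth muscle genes on the list were lower in these libraries than in any other. The B cell markers moved the other way: Ms4a1, which encodes the B cell surface protein CD20, reached 9.60 and 11.9 CPM there, against 0.611 to 0.758 CPM in the 4 others. All 8 B cell markers were higher in them, with a summed level of 57.4 and 71.8 CPM against 4.59 to 9.76 CPM in the other 4 ileal libraries and 1.98 to 7.26 CPM in colon. The main results are also given without these 2 libraries. Ileum KO 2 stood apart in colonic epithelial genes: Car1, a carbonic anhydrase of colonic epithelium, was at 2632 CPM there, 3.40 to 143.6 CPM in the other ileal libraries and 14880 CPM or more in colon, and Aqp8, a water channel, was at 67.3 CPM there, 0 to 0.358 CPM in the others and 20.5 CPM or more in colon. The part of this in the Ighv values of ileum KO 2 was not tested. Epcam and Vil1, which mark intestinal epithelium, were at 1328 CPM and 590.5 CPM or more in all 12 libraries.

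Most functional segments had counts, and most pseudogenes did not. Of 113 segments annotated as V genes, 93 held a count, and they took 99.4% of the 12100 Ighv counts. Of 70 V pseudogenes, 4 held a count, with 0.628% of the counts, nearly all of them in Ighv1-2 (73 counts, up to 40 in 1 library). The 88 Ighv rows outside the rule were at 0 in every library. At the other side of the rule, 10 segments reached 1 count at most, among them Ighv1-11, Ighv3-4 and Ighv12-3. In all, 31 of the 97 never reached 10 counts, and 13 had a count in 1 library only. There were 11 segments with a count in all 12 libraries.

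The summed Ighv level differed several-fold between libraries of the same group. In control ileum it was 19.1, 55.9 and 34.6 unscaled CPM (counts per 1000000 expected counts, without TMM factors) in replicates 1 to 3, and in KO ileum 31.7, 95.1 and 195.6. In control colon it was 4.38, 11.6 and 6.37 unscaled CPM, and in KO colon 10.7, 15.6 and 51.0. The lowest KO library of each tissue lay below the highest control library, so the genotypes overlapped in both tissues. The mean of the KO libraries was 2.94 times that of the controls in ileum (107.5 ± 82.6 against 36.5 ± 18.5 unscaled CPM, SD, n = 3 each) and 3.46 times in colon (25.8 ± 22.0 against 7.46 ± 3.74). These ratios rest on few mice. Without ileum KO 3 the ileal log2 ratio went from 1.56 to 0.80, and without colon KO 3 the colonic one went from 1.79 to 0.82. The ileal log2 ratio was 1.95 without the 2 libraries with few muscle transcripts and 1.64 without ileum KO 2. Colon was below ileum in each genotype: its mean was 0.204 times the ileal mean in controls, with no overlap, and 0.240 times in KO mice, where the libraries overlapped. Without the 2 libraries the log2 ratios of colon over ileum went from -2.29 to -2.33 in controls and from -2.06 to -2.5 in KO mice.

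Part of this spread went with the spread in heavy chain constant genes, and less so in control ileum. Igha, which encodes the constant region of IgA, took between 82.2% and 99.0% of the counts of the 8 heavy constant genes. Its level was 287.7, 1379 and 265.6 CPM in control ileum and 298, 961 and 1848 CPM in KO ileum. In control colon it was 86.8, 128.8 and 83.8 CPM, and in KO colon 128.1, 155.2 and 425.7 CPM. In each of the 4 groups the library with the highest Igha also had the highest summed Ighv level, and ileum KO 3 was highest in both. The order did not hold throughout: ileum control 3 had less Igha than ileum control 1 but more Ighv (34.6 against 19.1 unscaled CPM). Per 100 counts of heavy constant genes, Ighv segments had 7.76, 4.65 and 11.0 counts in control ileum, 8.74, 10.7 and 11.8 in KO ileum, 4.87, 7.51 and 6.33 in control colon and 7.11, 8.73 and 9.59 in KO colon. KO and control overlapped in each tissue, and the log2 ratio of KO over control came to 0.41 in ileum and 0.44 in colon on this scale. Ileum control 3 and ileum KO 1 held the most Ighm, the IgM constant gene (25.8 and 35.4 CPM against 6.32 to 8.94 CPM in the other ileal libraries), and Ighd, the IgD constant gene, was at 6.20 and 9.24 CPM there against 0.195 to 0.758 CPM. Both genes mark B cells that have not switched class, and the part of such cells in the Ighv values of these libraries was not tested.

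**Figure D1:**
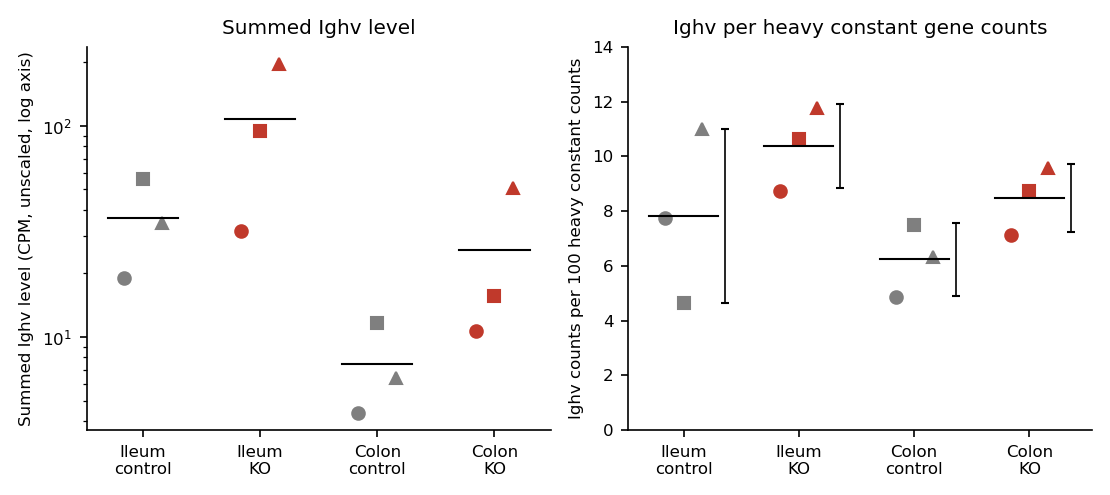
Left, summed Ighv level in unscaled CPM on a log axis, and right, Ighv counts per 100 counts of the 8 heavy constant genes, for each of the 12 libraries. Circles, squares and triangles are replicates 1, 2 and 3, black lines are group means and the bars on the right panel are 1 SD (n = 3). The ileal libraries reach 195.6 unscaled CPM and the control colon libraries stay between 4.38 and 11.6, while the values per heavy constant count lie between 4.65 and 11.8 and overlap between the genotypes of each tissue.

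Single segments took large shares of the Ighv counts, and which segment led differed between libraries. Ighv1-26 led in ileum control 1 with 12.4% of Ighv counts (95% Clopper-Pearson interval 9.14 to 16.4%), in ileum KO 3 with 10.8% (9.93 to 11.7%) and in colon control 1 with 17.0% (9.87 to 26.6%). Ighv1-72 led in both libraries numbered 2 of the control mice, with 21.0% (18.7 to 23.5%) in ileum and 27.1% (21.3 to 33.5%) in colon. It did not exceed 5.94% in any other library. Ighv1-55 led in ileum KO 1 with 20.3% (17.0 to 24.0%), in ileum KO 2 with 12.2% (11.0 to 13.5%) and in colon KO 1 with 12.8% (8.54 to 18.2%). Ighv1-81 led in colon control 3 with 11.1% (6.21 to 17.9%), in colon KO 2 with 11.3% (7.82 to 15.7%) and in colon KO 3 with 18.4% (16.1 to 20.9%). Ighv2-9 led in ileum control 3 with 21.4% (18.6 to 24.4%), which was 172 of 803 counts. Elsewhere Ighv2-9 held 5 counts or fewer. The intervals cover counting error only, and reads from 1 plasma cell are not independent, so the intervals do not cover the sampling of cells. Some leads were narrow, with the second segment inside the interval of the first. These were ileum KO 1 (Ighv1-81, 17.1%), ileum KO 2 (Ighv1-26, 11.65%), colon control 1 (Ighv1-64, 12.5%), colon control 3 (Ighv1-34, 8.73%) and colon KO 2 (Ighv1-82, 9.12%).

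The other segments among the 10 with the highest mean share were less dominant. Ighv1-64 ranged from 0 to 12.5% of Ighv counts, the latter being 11 of 88 counts in colon control 1. Ighv1-66 reached 17.9% in colon control 2 (39 counts) and was at 0 counts in colon control 3 and colon KO 1, where 3 counts would be 2.38% and 1.48% of the Ighv total. Ighv1-53 lay between 0.917% and 7.39%, Ighv1-19 between 0 and 6.29%, and Ighv1-82 between 0.377% and 9.12%. Of these 10 segments, 9 belong to the Ighv1 family, and the 10 together held 46.7% of all Ighv counts. At least 10% of a library's Ighv counts was reached by 8 of the 97 segments in some library, and at least 1% in every library was reached by 2. Shares are of counts, not per base, and the exons of the 97 segments sum to 347 to 480 bases each. Dividing by exon length left the leading segment as it was in 11 of 12 libraries, the exception being ileum KO 2, where Ighv1-26 came ahead of Ighv1-55.

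**Figure D2:**
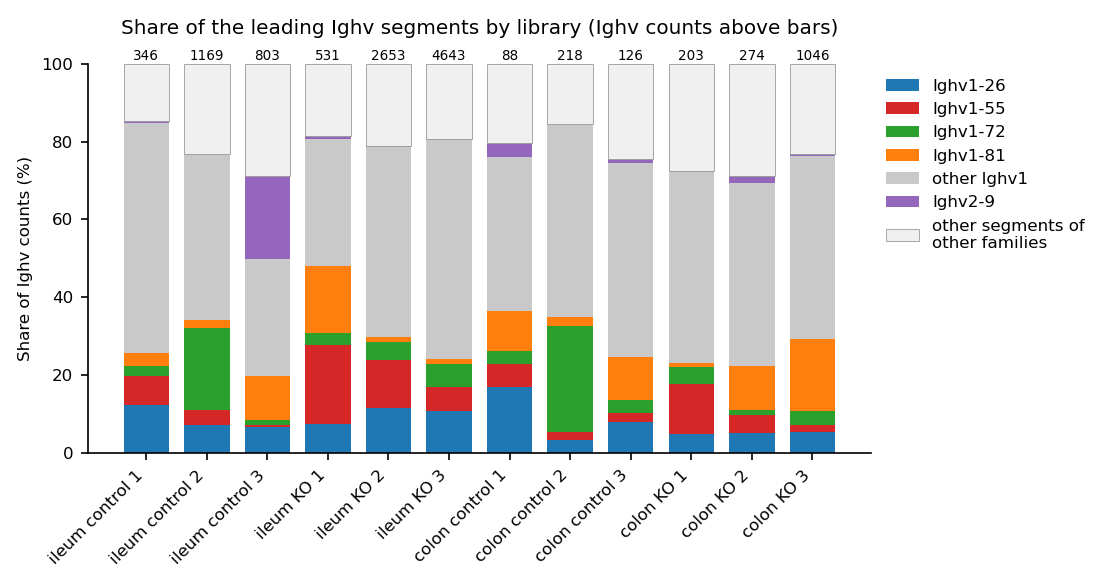
Share of Ighv counts (%) in each library taken by the 5 segments that led in at least 1 library, by the other Ighv1 segments, and by the remaining segments of other families. Numbers above the bars are the Ighv counts of the library. The leading segment changes from library to library, with Ighv1-72 at 21.0% and 27.1% in control 2 of ileum and colon and Ighv2-9 at 21.4% in ileum control 3.

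Dominance was summarised as the effective number of segments, the inverse of the sum of squared shares, which would equal the number of segments if all had equal shares. It was 19.2, 14.8 and 13.2 in control ileum, 11.0, 19.4 and 21.7 in KO ileum, 13.7, 7.43 and 19.0 in control colon and 19.9, 23.1 and 17.0 in KO colon. KO and control overlapped in each tissue. The lowest value was in colon control 2, where 3 segments (Ighv1-72, Ighv1-66 and Ighv1-74) held over 50% of 218 counts, and the next lowest was in ileum KO 1, where 4 segments did. The other libraries needed 5 to 9 segments to reach 50%. The KO mean exceeded the control mean by 1.62 in ileum and by 6.63 in colon, and these differences were 0.699 and 4.63 after each library was thinned to 88 Ighv counts, the smallest total. With a library left out, the ileal difference ran from -0.554 without ileum KO 3 to 4.81 without ileum KO 1, and the colonic one from 3.65 without colon control 2 to 9.43 without colon control 3. Without both ileum control 3 and ileum KO 1 the ileal difference was 3.53. The mean share of the leading segment was 18.3% ± 5.08 in control and 14.4% ± 5.15 in KO ileum, and 18.4% ± 8.06 in control and 14.2% ± 3.77 in KO colon (SD, n = 3 each). The KO minus control difference was -3.84 percentage points in ileum, and -5.22 without the 2 libraries with few muscle transcripts. In colon it was -4.22, but 0.113 without colon control 2 and -7.86 without colon control 3. The number of segments with a count, 29 to 33 in control colon and 41 to 68 in KO colon, 48 to 65 in control ileum and 55 to 78 in KO ileum, moved with the Ighv total and is not compared further.

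The Ighv1 family, the largest of the mouse locus, supplied most counts in all libraries but ileum control 3. Its 52 segments with a count, of 93 annotated, took 84.7%, 76.7% and 49.8% of Ighv counts in control ileum and 80.6%, 78.7% and 80.7% in KO ileum. In control colon they took 76.1%, 84.4% and 74.6%, and in KO colon 72.4%, 69.3% and 76.4%. The low value of ileum control 3 went with 27.6% of counts in the Ighv2 family, mainly Ighv2-9. The KO minus control difference was 9.60 percentage points in ileum and -0.70 without ileum control 3, and -1 without both that library and ileum KO 1. In colon it was -5.67 points, -2.66 without colon control 2 and -7.56 without colon control 3. After Ighv1, the families with the highest share over all libraries were Ighv14 (4.58%), Ighv2 (4.41%), Ighv5 (4.40%) and Ighv3 (2.84%), and each of these was present in all 12 libraries. Ighv11-2, the only Ighv11 segment with a count, was at 12 counts in colon KO 1 (5.91% of Ighv counts) and 7 in colon KO 2 (2.55%), at 7 in ileum KO 2 and 1 in ileum control 3, and at 0 in the other 8. This segment was picked out after its values were seen. No count fell on the annotated Ighv16 row.

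**Figure D3:**
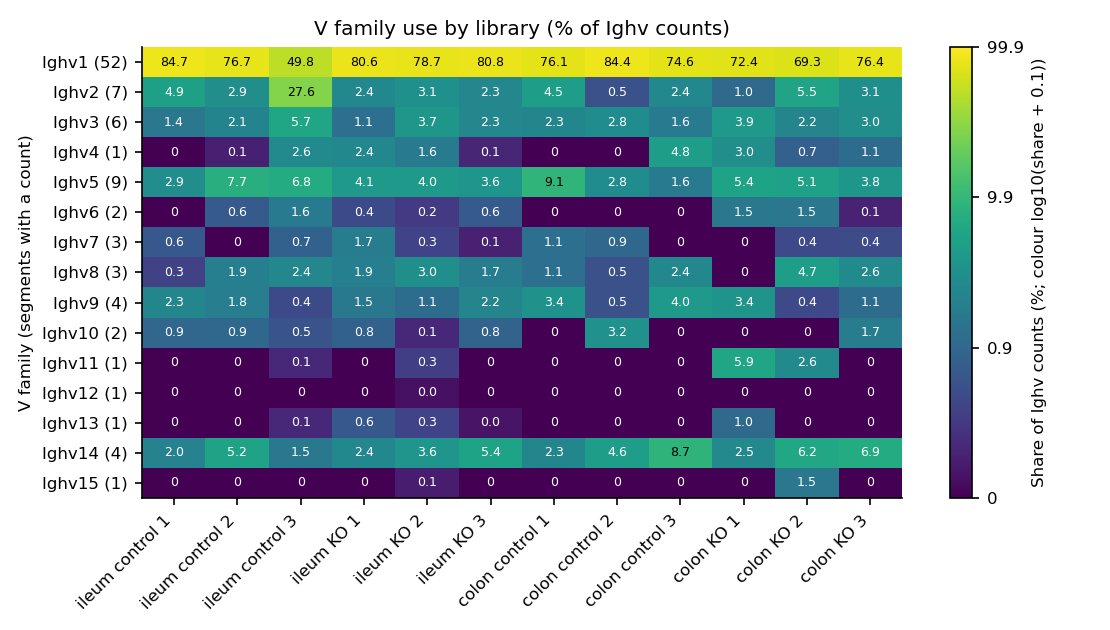
Share of Ighv counts (%) of each V family in each library, written in each cell, with colour on a log10 scale after adding 0.1 and the number of segments with a count in parentheses. Ighv1 is highest in every column, and ileum control 3 stands out with 49.8% Ighv1 and 27.6% Ighv2.

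Position in the locus was summarised over 3 stretches of equal length. The 37 segments with a count in the stretch nearest the J segments took a median of 19.5% of Ighv counts over the 12 libraries, between 11.9% and 45.7%, the highest in ileum control 3. The 33 of the middle stretch took a median of 32.6% (19.3 to 55.2%), and the 27 of the farthest stretch, which holds Ighv1-55, Ighv1-72 and Ighv1-81, took a median of 43.4% (30.6 to 68.8%, the highest in colon control 2). The stretches hold 68, 72 and 45 annotated rows. The ranges overlapped, and no test was made between the stretches.

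V use was compared between ileum and colon across the 97 segments, as a description in which each point is a segment and libraries share their base composition and annotation. Pearson's r of the shares between ileal and colonic libraries of the same genotype and number was 0.67, 0.69 and 0.33 for controls 1 to 3 and 0.55, 0.45 and 0.31 for KO 1 to 3. Among the 30 other pairs of an ileal and a colonic library it ranged from 0.08 to 0.70 with a median of 0.41. Control 2 was the clearest match, since Ighv1-72 led on both sides and each library was the closest of the other tissue to its namesake. In all, 3 of 12 libraries had their highest r with the library of the same genotype and number, and 4 of 12 had the largest shared percentage with it.

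Next, the segments were tested for the effect of genotype. No Ighv segment passed an adjusted p under 0.1 (edgeR quasi-likelihood test, Benjamini-Hochberg over 16558 genes), in both tissues together, in ileum or in colon, and the same was true of all genes (0 of 16558, 0%). Of the 97 segments, 30 passed the filter on low counts, and a segment could pass it through the group where it was high, so counts over the 30 do not describe the 97. At an unadjusted p under 0.05, 16 of the 30 were higher in KO over both tissues and 0 lower, against 3.87% of all genes tested. In ileum there were 11, against 1.52% of all genes, and in colon 5, against 2.33%, and all of them were higher in KO. The median log2 fold change of the 30 was 1.88 over both tissues, 1.98 in ileum and 2 in colon, against 0 for all genes tested. All segments draw on the same few libraries, and ileum KO 3 and colon KO 3 held the highest Igha of their tissues, as given above, so these segments do not vary independently. DESeq2 called 1 of 89 segments over both tissues, where 4 of 27963 genes were called (0.0143%). In ileum it called 1 of 95 segments and 2 of 27991 genes (0.00715%), and in colon 0 segments and 0 genes. Without the 2 libraries with few muscle transcripts, edgeR called 2 of 41 segments over both tissues and 5 of 16896 genes (0.0296%), 1 segment and 3 genes in ileum (0.0178%), and 0 of either in colon.

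Ighv1-55 had the smallest p of the segments in all 3 comparisons. It is a member of Ighv1 at 115208095 to 115208591. Its counts were 25, 43 and 5 in control ileum and 108, 324 and 281 in KO ileum, and 5, 5 and 3 in control colon and 26, 13 and 19 in KO colon. In CPM these were 1.66, 2.39 and 0.213 against 6.44, 12.7 and 13.3 in ileum, and 0.256, 0.240 and 0.141 against 1.23, 0.673 and 0.789 in colon. All KO libraries lay above all control libraries of the same tissue. The log2 fold change was 2.62 (SE 0.48) over both tissues, with an adjusted p of 0.998 in edgeR and 0.00034 in DESeq2. The exact permutation test within tissues, two-sided, gave p = 0.005, the smallest that it allows if the 12 libraries are independent. Should both tissues come from the same 3 mice per genotype, no p below 0.1 could be reached. The study had already reported Ighv1-55 as higher in KO mice from these same libraries, so its difference was known when it was chosen. Its p-values are therefore a description and not independent evidence. In ileum the log2 fold change was 2.95 (SE 0.63), and in colon it was 2.05 (SE 0.74). Their difference, -0.89 (SE 1.01), had an adjusted p of 1 in edgeR.

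As a share of all Ighv counts, Ighv1-55 was less distinct. It held 7.22%, 3.68% and 0.623% in control ileum and 20.3%, 12.2% and 6.05% in KO ileum, and 5.68%, 2.29% and 2.38% in control colon and 12.8%, 4.75% and 1.82% in KO colon. KO and control overlapped in both tissues on this scale. The log2 difference of the share plus 0.5 was 1.21, with an exact permutation p of 0.085 over both tissues, 0.2 in ileum and 0.7 in colon. Ileum KO 1 had the highest share of the 12 libraries but the lowest CPM of the 3 KO libraries of its tissue. Without ileum control 3 and ileum KO 1, the libraries with few muscle transcripts, the adjusted p of Ighv1-55 in edgeR was 0.00534 over both tissues with a log2 fold change of 2.45 (SE 0.25), and 0.0325 in ileum. Leaving out ileum control 3 alone brought it to 0.0763.

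**Figure D4:**
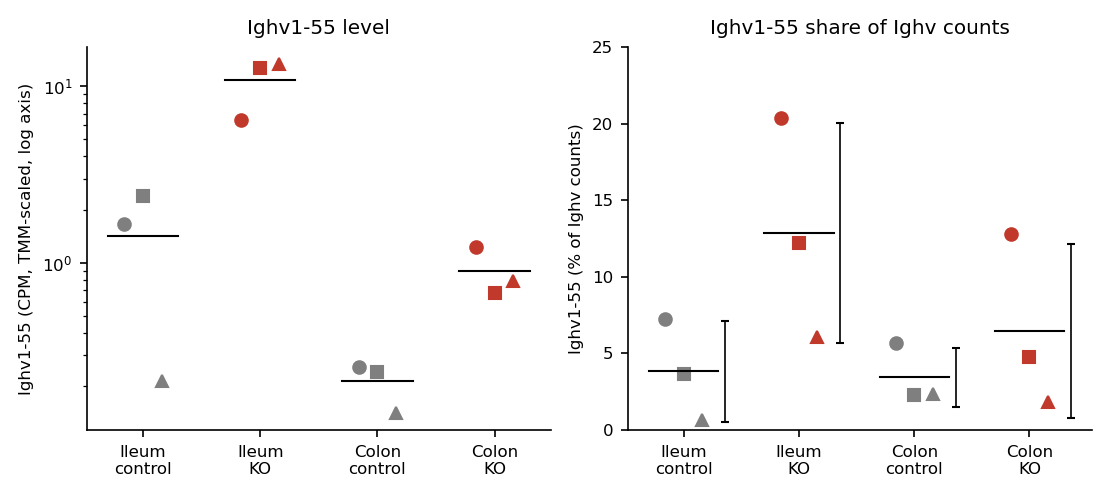
Ighv1-55 by library as CPM on a log axis (left) and as a percentage of all Ighv counts (right). Circles, squares and triangles are replicates 1, 2 and 3, black lines are group means and the bars on the right are 1 SD (n = 3). On the left all KO libraries lie above the controls of their tissue, while on the right the genotypes overlap in ileum and in colon.

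Among the other segments, Ighv1-53 did not overlap between the genotypes in ileum (0.799, 0.833 and 0.637 CPM in control, 1.01, 1.80 and 9.66 CPM in KO), and Ighv1-78 (0, 0 and 0.0942 CPM against 0.141, 0.155 and 0.623 CPM) and Ighv1-82 (0.0512, 0.0960 and 0.141 CPM against 0.660, 1.30 and 0.457 CPM) did not overlap in colon. With Ighv1-55 these made 2 of 30 segments in ileum, against 2.13% of all genes higher in KO without overlap, and 3 of 30 in colon, against 6.98%. Over both tissues Ighv1-55 was the only segment of the 30, against 0.236% of all genes. Ighv1-78 in colon rested on 0, 0 and 2 counts in control and 3, 3 and 15 counts in KO libraries. Ighv1-59 had the highest log2 fold change over both tissues, 4.07 (SE 1.10), with 219 of its counts in ileum KO 3, 66 in ileum KO 2 and 12 in ileum control 2. Its groups overlapped in both tissues, and its adjusted p was 0.998 in edgeR. Without the 2 libraries with few muscle transcripts, Ighv1-82 also passed over both tissues in edgeR (log2 fold change 3.65, SE 0.47, adjusted p 0.0194).

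The segments with the highest mean shares did not all go the same way. Ighv1-26 had a log2 fold change of 1.63 (SE 0.54) over both tissues, Ighv1-81 of 1.67 (SE 0.80) and Ighv1-64 of 2.21 (SE 0.81). Ighv1-72 had -0.03 (SE 0.94) and Ighv1-66 had -0.17 (SE 0.87). None of these had an adjusted p under 0.998 in edgeR, and the standard errors leave room for changes of more than 2-fold in either direction for Ighv1-72. Ighv2-9 did not pass the filter. The genotype effect in colon minus that in ileum ran from -1.99 to 4.21 on the log2 scale over the 30 segments, with a median of -0.16 and 14 of 30 above 0. None was called in edgeR, as for all genes (0%), and 0 of 30 had an unadjusted p under 0.05, against 1.02% of all genes. The smallest p of this comparison was that of Ighv5-17 (difference 2.84, SE 1.47, adjusted p 1 in edgeR). DESeq2 called no segment either, and 1 gene of 27991.

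Between tissues the segments were lower in colon. Of the 30 segments tested, 24 were lower in colon than in ileum at an adjusted p under 0.1 in edgeR and 0 were higher, where 55.3% of all 16558 genes were called and 28.2% were called lower in colon. The median log2 fold change of colon over ileum was -2.56 for the 30 segments and 0.02 for all genes tested. Without the 2 libraries with few muscle transcripts, 33 of 41 segments and 9972 of 16896 genes were called. The 5 with the smallest p were Ighv1-55 (-3.25, SE 0.49, adjusted p 0.000146), Ighv1-26 (-3.07, SE 0.56, adjusted p 0.000684), Ighv1-59 (-5.45, SE 1.17, adjusted p 0.00212), Ighv2-2 (-3.52, SE 0.84, adjusted p 0.00431) and Ighv5-17 (-2.82, SE 0.73, adjusted p 0.00705) in edgeR. Ighv1-26 was at 2.86, 4.72 and 2.25 CPM in control ileum and 0.768, 0.336 and 0.471 CPM in control colon, and at 2.33, 12.1 and 23.8 CPM in KO ileum and 0.471, 0.725 and 2.32 CPM in KO colon. Within each genotype its ileal libraries were all above its colonic libraries, and in KO mice the lowest ileal and the highest colonic library were nearly equal. The same held for Ighv2-2 and Ighv5-17, so that 3 of 30 segments were lower in colon without overlap in either genotype, against 17.0% of all genes. For the summed level the tissue difference was also much smaller per heavy constant count, with log2 ratios of -0.32 in controls and -0.29 in KO mice, against -2.29 and -2.06 in unscaled CPM.

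The 6 segments not called between tissues included Ighv1-81, which led in 3 colonic libraries. Ighv1-81 was at 0.461, 0.240 and 0.659 CPM in control colon and 0.0942, 1.61 and 8.01 CPM in KO colon, against 0.799, 1.33 and 3.82 CPM in control ileum and 5.43, 1.49 and 2.89 CPM in KO ileum (log2 fold change -0.95, SE 0.79, adjusted p 0.34 in edgeR). Ighv1-66 (-0.98, SE 0.88), Ighv1-50 (-0.54, SE 1.10) and Ighv1-34 (0.42, SE 1.05) likewise had colonic libraries above some ileal ones. Ighv1-34 had its highest level in colon KO 3, with 74 counts, and Ighv1-50 also had its highest there, with 73. The remaining pair was Ighv4-1 and Ighv1-80.

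**Figure D5:**
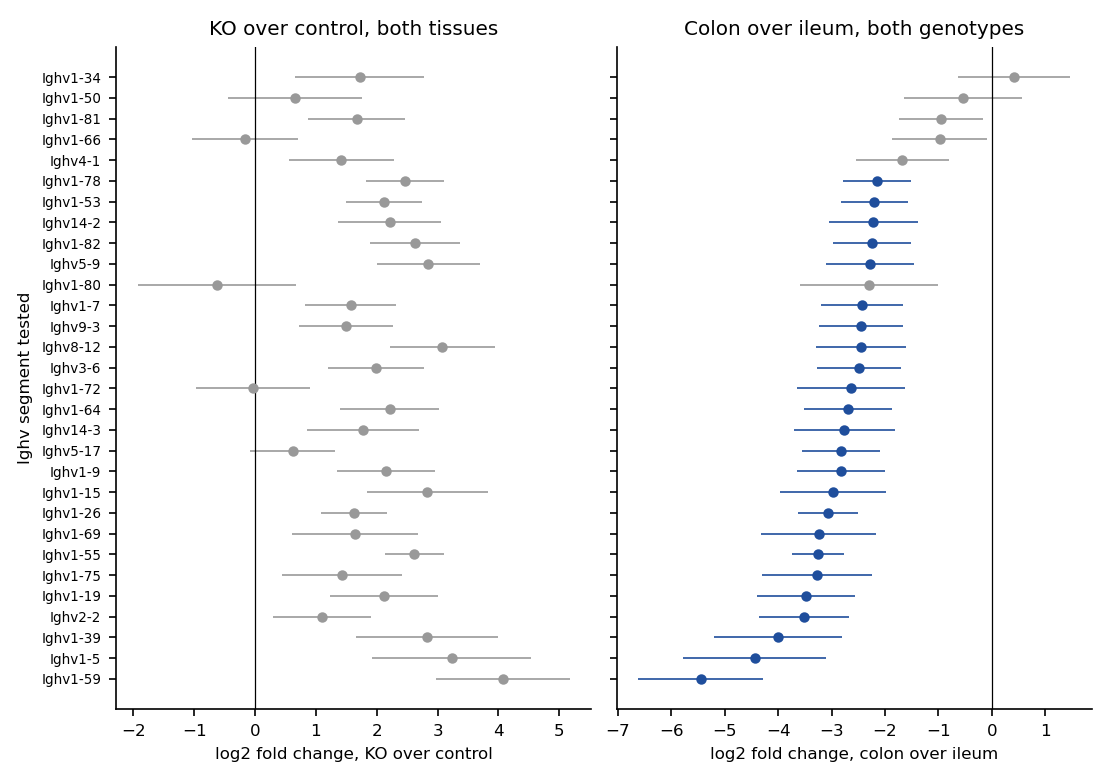
Log2 fold changes of the 30 Ighv segments that passed the filter on low counts, for KO over control (left) and colon over ileum (right). Bars are 1 standard error derived from the edgeR test. Blue points have an adjusted p under 0.1, which 24 segments reach on the right and none on the left, where 27 of 30 lie above 0.

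The partner genes of the heavy chain were read beside the segments. Of the 8 heavy constant genes, 6 were tested, and none was called for genotype in edgeR over both tissues, in ileum or in colon, with 0 at an unadjusted p under 0.05 in each and a median log2 fold change of 0.60 over both tissues. Igha had a log2 fold change of 0.96 (SE 0.51), beside 2.62 for Ighv1-55. Between tissues 4 of the 6 were lower in colon: Igha (-2.41, SE 0.53), Ighm (-1.57, SE 0.45), Ighd (-2.55, SE 0.93) and Ighg2b (-1.59, SE 0.59). Ighg2c, an IgG constant gene, reached 10.5 CPM in colon KO 3 and 1.60 CPM or less elsewhere, and Ighg3 and Ighe did not pass the filter. Jchain, which joins IgA into dimers, and Pigr, the epithelial receptor that carries them into the lumen, were both lower in colon (-1.23, SE 0.48 and -1.14, SE 0.23) and not called for genotype (0.37, SE 0.48 and 0.36, SE 0.22). Neither had an unadjusted p under 0.05 for genotype.

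Of the 10 plasma cell genes, 8 were lower in colon and 0 were called for genotype in edgeR, with 2 at an unadjusted p under 0.05 over both tissues, 0 in ileum and 1 in colon. The 8 included Mzb1, a chaperone of antibody assembly (-2.28, SE 0.42), Derl3, which serves the removal of misfolded proteins (-2.18, SE 0.46), and the transcription factors Prdm1 (-1.98, SE 0.30), Irf4 (-1.56, SE 0.39) and Xbp1 (-0.59, SE 0.14), together with Jchain, Txndc5 (-0.41, SE 0.16) and Fkbp11 (-0.96, SE 0.22). Prdm1 and Xbp1 are also made by epithelial cells. The exceptions were Sdc1 (0.09, SE 0.08), which epithelial cells also make, and Tnfrsf17, the receptor for a plasma cell survival factor (-0.58, SE 0.52). For genotype the 2 were Sdc1 (0.22, SE 0.08) and Fkbp11 (0.55, SE 0.22). The median log2 fold change of the list was 0.31 for genotype and -1.09 for tissue, against 0 and 0.02 for all genes tested.

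The recombination and switch genes showed almost no recombinase. Rag1 was at 0 in all 12 libraries, and Rag2 was at 0 except in colon KO 1 (0.0471 CPM) and colon KO 2 (0.104 CPM). Dntt, which adds bases at the joints, reached 0.200 CPM in ileum control 1 and was at or under 0.0425 CPM elsewhere. Ung, a uracil glycosylase, had a log2 fold change of 0.68 (SE 0.28) for genotype with an adjusted p of 0.998 in edgeR, and Msh6, of mismatch repair, was lower in colon (-0.67, SE 0.18). Cells of many types make both.

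Markers of other cell types moved with tissue in the same direction as the segments. Of 8 B cell markers, 7 were tested and 6 were lower in colon, with a median log2 fold change of -2.76, and all 6 T cell markers were lower in colon with a median of -1.90. All 5 epithelial markers were lower in colon too, with a median of -1.08. No germinal centre marker of 3 tested and none of the 5 smooth muscle genes was called between tissues, and 2 of 4 follicle stroma genes were lower in colon. The 3 colonic epithelial genes were higher in colon at an adjusted p under 0.1 and the 2 ileal ones tested were lower. None of the genes on these lists was called for genotype in edgeR, with 1 ileal epithelial gene at an unadjusted p under 0.05 over both tissues, Fabp6 (0.75, SE 0.33). In ileum 2 of the 3 colonic epithelial genes, Car1 and Aqp8, had an unadjusted p under 0.05 for genotype (adjusted p 1 in edgeR), with their highest ileal level in ileum KO 2 as given above. The part of the makeup of the mucosa in the tissue difference of the segments was not tested.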

How the data were processed

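RNA from ileal and colonic mucosa was measured in 12 libraries, with groups taken from the sample labels. The deposited table holds expected counts, which are estimated reads of each gene without normalization, from oligo-dT primed paired-end libraries that were aligned to mm10 with STAR per the labels. The Reporting Summary of the study names uniquely mapped reads, removal of duplicates and counting per gene, but names no tool for expected counts, so the division of reads among similar V segments is unknown. Of the values of the 97 segments 99.8% were whole. The table has 53807 lines, and its 92 spike-in lines held 0 counts and were left out. Of 53715 gene rows, 51464 had the same identifier version in GENCODE M21 (GRCm38), which gave symbols, coordinates and transcript sequences.

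Counts were rounded and fitted over all genes with edgeR 4.0.16 in R 4.3.3 (filterByExpr with the 4 groups, TMM factors, glmQLFit and glmQLFTest), and p-values were adjusted over 16558 genes by the Benjamini-Hochberg method and called under 0.1. Genotype over both tissues and the tissue effect came from an additive model, and the effects in ileum, in colon and their difference from a model of the 4 groups. The standard errors (SE) beside edgeR fold changes were the absolute log2 fold change over the square root of the F statistic of the test. They are approximate, most of all for fold changes near 0 and for groups without counts. Single-gene CPM use the TMM-scaled library size, while summed Ighv levels are in CPM of the unscaled library total. Permutation tests were exact and two-sided on log2 of the value plus 0.5. Sums, effective numbers and family shares were given without a test. DESeq2 1.42.0 and limma-voom (limma 3.58.1), other scaling factors, filters, the replicate number as a block and each library left out were alternatives. In simulated data with 200 genes changed, the genotype fit of edgeR over both tissues found 47% of 2-fold and 87% of 4-fold changes among 16248 genes, with 11.3% false calls. The simulated counts were drawn independently, without differences shared by many genes of a library, so these percentages may not hold for the real data. In the real data 0 of 16558 genes were called for genotype over both tissues, so Slc39a8, the targeted gene, was not called either. Depth was 16749138 to 27903083 expected counts, and segments with few counts are limited by it.

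The members, the gene lists and the tests were chosen with earlier results of these data known. The text names Ighv1-55, the 10 segments with the highest mean share, the leading segment of each library, all segments called in a comparison if at most 10 and otherwise the 5 with the smallest p in each direction, the segment with the smallest p of each comparison, examples at the 1-count limit, and the lists of heavy constant, IgA transport, plasma cell, recombination and cell type marker genes. Segments outside this rule were named after their values were seen, among them Ighv1-2, Ighv1-74, Ighv1-78, Ighv11-2, Ighv1-34, Ighv1-50, Ighv1-62-3 and Ighv1-80. Replicates are different mice per the methods of the study. Figures were drawn with matplotlib 3.10.9. Values of some listed genes are not reported here.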

Additional observations from a re-analysis of the deposited data

How the results depend on the processing

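Over 298 recomputed values, 280 were counted as unchanged by a rule that differed by kind of value. A count of called segments had to equal the main count or, with neither at 0, lie within a fixed ratio of it. A level, share or effective number had to move by less than the spread between replicates, even if its sign turned. The ileal difference of the Ighv1 share was thus counted as unchanged at -0.70 points without ileum control 3, from 9.60. For Ighv1-55, the log2 fold change had to keep its direction and its adjusted p its side of the threshold. Its share of Ighv counts was judged by the unadjusted p of the exact permutation test instead. That p, 0.085, was under 0.1, so the share was counted as changed, although the 2 kinds of p are not alike. The calls for genotype depended on the tool and on the 2 ileal libraries with few muscle transcripts. Over both tissues, 0 segments (of all genes 0) were called in edgeR, 1 (4) in DESeq2, 2 (5) in edgeR without those libraries, and 0 to 1 when each library was left out, the 1 being without ileum control 3. DESeq2 without them called 161 genes and gave no segment an adjusted p. In ileum the counts were 1 (2) in DESeq2, 1 (3) in edgeR without those libraries and 4 (26) in DESeq2 without them (Ighv1-26, Ighv1-82, Ighv1-55 and Ighv1-15), and in colon 2 (23) in DESeq2 without them (Ighv1-82 and Ighv1-55). Between tissues 24 of 30 segments (9157 genes) were called in edgeR, 39 of 65 (9802) in DESeq2, 45 of 97 (9340) with all genes of at least 1 count kept and 43 of 66 (10116) in DESeq2 without those libraries, and 20 to 36 with a library left out, the 36 being without colon KO 3. Ighv1-55 had a log2 fold change of 2.62, of 2.6 in DESeq2 (adjusted p 0.00034), of 2.45 without the 2 libraries (edgeR, adjusted p 0.00534), of 2.28 to 2.91 with a library left out, and of 1.21 as a share of Ighv counts. Its adjusted p lay between 0.00034 and 1 over all alternatives. The summed Ighv level per count of heavy constant genes had log2 ratios of 0.41 in ileum and 0.44 in colon for genotype, and of -0.32 in control and -0.29 in KO mice for tissue. The cause of these differences between settings was not tested. DESeq2 without the 2 libraries, the block by genotype and number, the unbiased estimate of the effective number and counts per base of exon were chosen after seeing the data.

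The labels do not say whether replicate numbers pair the samples, and not every correlation was over 0.1. Over all genes, deviations of ileal and colonic libraries of the same genotype and number correlated at -0.02, 0.17 and -0.06 in controls and at 0.22, 0.08 and 0.30 in KO mice. In KO mice each ileal library correlated best with the colonic library of its own number (other numbers -0.24 to 0.05). In controls 1 of 3 did. This is a weak hint from the data and not the design. In V use, ileum KO 1 to 3 had r of 0.55, 0.45 and 0.31 with their own number. With another colonic library they reached 0.64, 0.66 and 0.70. Ileum control 1 and 2 were highest with their own number (0.67 and 0.69), and ileum control 3 was not (0.33 against 0.45). With the replicate number as a block, 0 segments were called for genotype and 24 between tissues, and with a block by genotype and number 24 between tissues. The log2 fold change of Ighv1-55 under the replicate block was 2.74.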
